A study of Homo sapiens with 18 samples.

Results

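The p53 target genes described here are 34 genes that are commonly listed as switched on by the tumour suppressor p53, and they were matched by gene symbol to the probe sets of the array. Of the 34, 32 were measured by a probe set with 1 symbol, out of 18417 genes measured in all, and BTG2 and FDXR were not analysed here. Gene expression was measured in total RNA of 18 arrays from HMLE and MCF10A, which are human lines of non-tumorigenic mammary epithelium. HMLE cells were immortalised with telomerase and with viral T antigens, and every HMLE array carries these, the vector arrays included, so the line and the T antigens cannot be told apart. MCF10A cells became immortal spontaneously. Each line carried an empty vector, Snail (gene SNAI1) or Twist (gene TWIST1), which gives 6 groups of 3 arrays. Snail and Twist are transcription factors that drive the epithelial-mesenchymal transition (EMT). The labels describe selected stable clones harvested in logarithmic growth from medium with fetal bovine serum. They do not say how many clones were taken or whether the 3 arrays of a group came from separate cultures, and the p-values therefore rest on a spread between arrays that may be technical. The comparisons ask how the p53 targets differed between the lines, and what Snail and Twist changed in each line.

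p53 is a transcription factor that is held at low levels by the ubiquitin ligase MDM2, itself a p53 target, and by its relative MDM4, which covers the activation domain of p53. After DNA damage or other stress p53 escapes this loop and binds paired decamer motifs near its targets, which pause the cell cycle, repair DNA, alter metabolism or start apoptosis through mitochondria and death receptors. The large T antigen of simian virus 40 binds p53 and hinders its action as a transcription factor, and several of the genes below are also driven by p63, a relative of p53 in basal epithelium, or by other stress pathways.

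The stretch around each start site was examined for motifs that p53, Snail and Twist are known to bind. RefSeq promoters of assembly GRCh38.p14, each 300 bases long from 250 before to 50 after the start, were matched to 26 of the 32 measured genes by symbol. FBXO22, TP53INP1, SCN3B, GADD45A, PHLDA3 and RRM2B had no entry. The p53 decamer motif, 10 letters long and searched on both strands, was found in AEN, PLK2 and RPS27L, which is 3 of 26 or 11.5%, against 5.94% of 14239 promoters. The double p53 core CATGNNNNNNCATG was found in TRIAP1 alone, 1 of 26 or 3.85%, against 0.246% of all promoters. No promoter of the 26 held a pair of decamers at most 13 bases apart, and 0.0211% of all promoters did. CAGGTG, an E-box that Snail binds, was present in 6 of 26 (23.1%; 19.6% of all promoters), namely BAX, FAS, AEN, PLK3, ZMAT3 and TIGAR. The general E-box CANNTG, bound by Twist and other helix-loop-helix factors and including every CAGGTG, was present in 15 of 26 (57.7%; 64.1% of all promoters). These are matches of letters in a short window, and they say nothing about sites outside it. The promoters with a p53 motif are printed 5′ to 3′ with that motif in capitals, and GDF15, which had the largest estimated rise under Snail in HMLE, is shown for contrast with its CANNTG matches in capitals.
AEN: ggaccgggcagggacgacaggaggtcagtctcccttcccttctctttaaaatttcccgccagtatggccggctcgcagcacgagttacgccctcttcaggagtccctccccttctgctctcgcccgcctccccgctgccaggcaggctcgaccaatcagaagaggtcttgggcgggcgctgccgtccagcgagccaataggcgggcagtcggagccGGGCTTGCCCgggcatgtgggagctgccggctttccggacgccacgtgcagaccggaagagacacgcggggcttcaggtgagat
PLK2: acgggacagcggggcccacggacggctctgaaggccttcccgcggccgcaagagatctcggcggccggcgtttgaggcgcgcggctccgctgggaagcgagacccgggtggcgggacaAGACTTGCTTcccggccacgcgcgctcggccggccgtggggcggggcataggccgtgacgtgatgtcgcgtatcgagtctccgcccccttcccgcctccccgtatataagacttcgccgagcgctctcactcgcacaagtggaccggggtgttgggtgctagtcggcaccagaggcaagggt
RPS27L: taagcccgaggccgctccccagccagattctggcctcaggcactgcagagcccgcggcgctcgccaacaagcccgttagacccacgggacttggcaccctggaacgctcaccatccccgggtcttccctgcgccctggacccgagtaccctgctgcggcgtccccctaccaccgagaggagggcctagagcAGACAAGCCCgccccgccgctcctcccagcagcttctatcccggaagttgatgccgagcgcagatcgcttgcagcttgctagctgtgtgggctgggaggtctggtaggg
TRIAP1: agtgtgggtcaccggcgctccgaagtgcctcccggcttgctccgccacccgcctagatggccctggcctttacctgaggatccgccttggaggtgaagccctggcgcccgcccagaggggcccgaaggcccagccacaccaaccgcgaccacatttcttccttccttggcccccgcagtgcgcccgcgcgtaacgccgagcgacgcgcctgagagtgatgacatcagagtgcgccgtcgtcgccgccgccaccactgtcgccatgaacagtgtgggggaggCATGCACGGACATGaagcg
GDF15: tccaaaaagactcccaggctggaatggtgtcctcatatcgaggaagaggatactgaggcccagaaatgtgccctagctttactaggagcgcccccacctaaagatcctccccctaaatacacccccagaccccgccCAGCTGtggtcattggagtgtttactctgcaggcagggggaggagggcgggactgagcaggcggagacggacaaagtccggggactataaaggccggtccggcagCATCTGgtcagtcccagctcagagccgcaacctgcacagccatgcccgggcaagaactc
The AEN window is chr15:88621090-88621389, plus strand, that of PLK2 is chr5:58460037-58460336, minus strand, and that of RPS27L is chr15:63157428-63157727, minus strand. The TRIAP1 window is chr12:120446335-120446634, minus strand, and that of GDF15 is chr19:18385908-18386207, plus strand. The decamer began at position -34 from the start in AEN, -132 in PLK2 and -59 in RPS27L. In TRIAP1 the core began at 32, and in GDF15 the E-boxes began at -114 and -9.

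The medians of the arrays ran from 7.698 to 7.793 (log2), and replicate arrays correlated at 0.99 to 0.997 across genes. SNAI1 was higher in the Snail arrays of HMLE by 5.14 ± 0.09 and of MCF10A by 4.17 ± 0.09, as log2 differences with their SE. TWIST1 was higher in HMLE Twist by 1.80 ± 0.07, and in the arrays labelled MCF10A Twist it was higher by 0.92 ± 0.07. The Snail arrays had more TWIST1 than vector too, with a difference of 1.12 ± 0.07 for HMLE and 0.24 ± 0.07 for MCF10A. The line of the 3 arrays labelled MCF10A Twist is in doubt. MTAP, which lies beside CDKN2A in a region that MCF10A cells are known to lack, had a mean level of 5.98 in MCF10A vector and 6.02 in MCF10A Snail but 10.8 in the arrays labelled MCF10A Twist, against 10.3 in HMLE vector. They are therefore compared with the vector arrays of both lines, and the other comparisons were also fitted without them. All 6 mammary epithelial markers fell in HMLE Snail, in HMLE Twist and in the arrays labelled MCF10A Twist, and 4 of 6 fell in MCF10A Snail. Fibroblast markers rose for 7 of 7 in HMLE Snail and in HMLE Twist, 3 of 7 in MCF10A Snail and 6 of 7 in the arrays labelled MCF10A Twist. The mean level of the 5 endothelial markers lay between 6.52 and 6.96 in every array, though PECAM1 and KDR differed between groups. In HMLE vector, Snail and Twist, PECAM1 had means of 7.01, 7.57 and 7.07 and KDR of 6.77, 7.28 and 6.33. In MCF10A vector, MCF10A Snail and labelled MCF10A Twist, PECAM1 had means of 7.88, 7.01 and 6.94 and KDR of 7.13, 7.40 and 6.34. The mean level of 4 leukocyte markers lay between 6.2 and 7.44. Of these 4, CD14 had group means of at most 7.27 in HMLE but 11.67 in MCF10A vector, 9.87 in MCF10A Snail and 8.46 in the arrays labelled MCF10A Twist, and it fell in the last 2 (-1.81 ± 0.11 and -3.21 ± 0.11 against MCF10A vector). The other 3 leukocyte markers had group means of 4.59 to 7.06. In bulk RNA, fewer cells of a kind and less RNA per cell cannot be told apart. The part of these markers in the results below was not tested.

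Across the 6 groups the p53 targets did not move as 1 block. The highest and lowest group means differed by at least 1 on the log2 scale, which is 2-fold, for 16 of 32 members (50%), against 22.1% of all genes. The median of this range was 1.01 for the members and 0.49 for all genes, and the median level was 9.92 for the members and 8.54 for all genes. CYFIP2 had the widest range (3.15), followed by PERP (2.92), GDF15 (2.63) and SPATA18 (2.40). BBC3, which encodes the apoptosis inducer PUMA, had the narrowest (0.18), with group means from 8.53 to 8.71. The number of members above their own mean over 18 arrays was 8 to 11 in the HMLE vector arrays, 19 to 24 in HMLE Snail, 18 to 24 in HMLE Twist, 17 to 19 in MCF10A vector, 17 to 21 in MCF10A Snail and 9 to 13 in the arrays labelled MCF10A Twist. Levels below are log2 values in replicates 1 to 3 of each group, and no level is set against that of another gene.

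**Figure D1:**
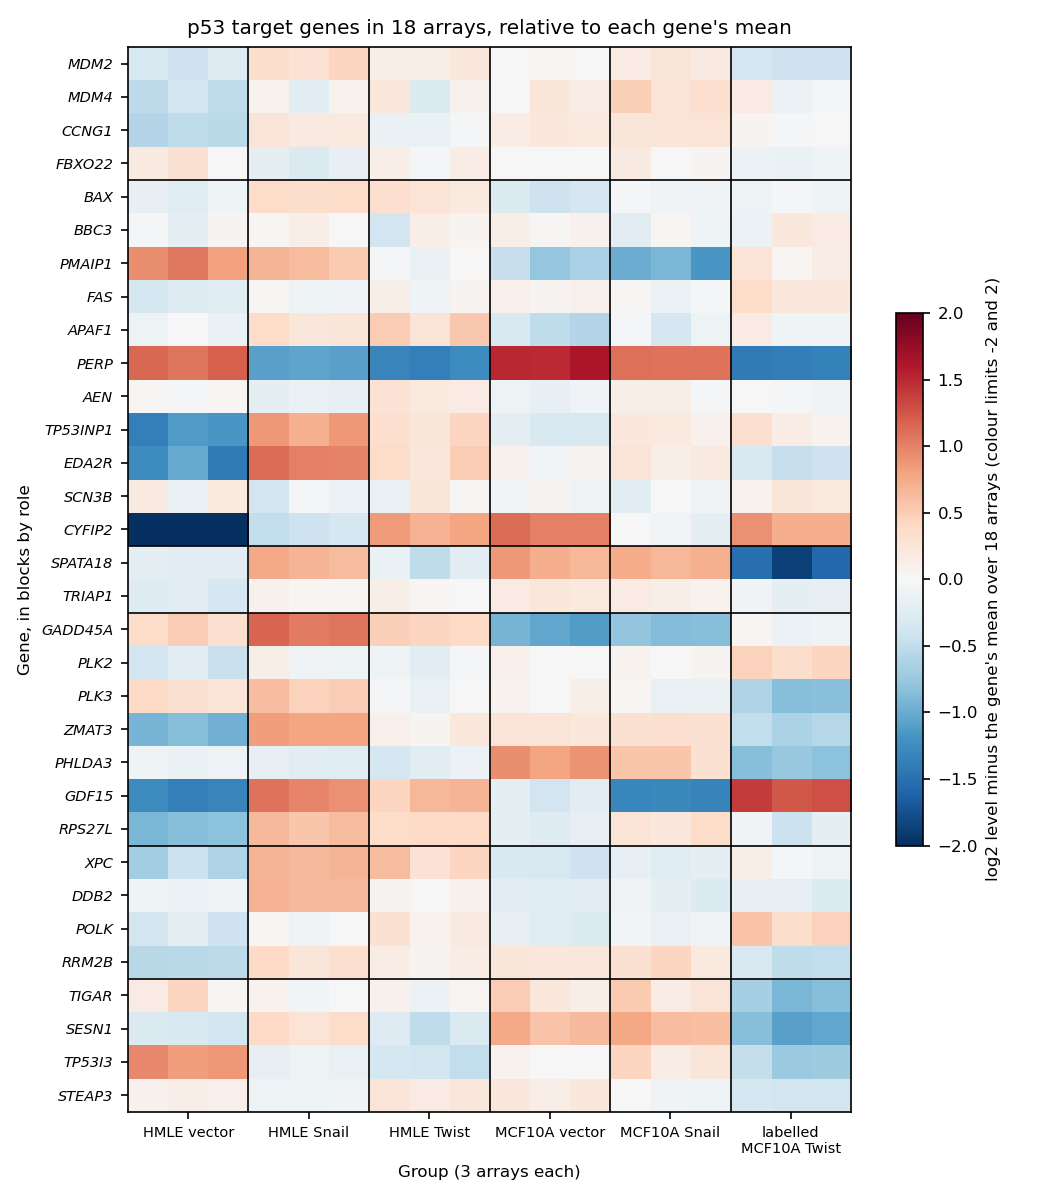
Each row is 1 of the 32 measured p53 target genes, in blocks by role, and each column is 1 of 18 arrays. The colour is the log2 level minus the gene's mean over 18 arrays, limited to -2 and 2. CYFIP2, EDA2R, TP53INP1, GDF15 and ZMAT3 are lowest in the HMLE vector arrays, except that GDF15 is about as low in MCF10A Snail (mean 9.80 against 9.79), and PERP is low in all 9 arrays of HMLE Snail, HMLE Twist and labelled MCF10A Twist.

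The feedback genes varied little next to the widest members. MDM2 stood at 11.89, 11.79 and 11.95 in the HMLE vector arrays, 12.57, 12.50 and 12.64 in HMLE Snail and 12.35, 12.34 and 12.43 in HMLE Twist. Its levels were 12.20, 12.26 and 12.22 in MCF10A vector, 12.38, 12.46 and 12.39 in MCF10A Snail and 11.86, 11.80 and 11.80 in the arrays labelled MCF10A Twist. MDM2 was thus high in all HMLE arrays with a factor and in MCF10A Snail, and low in HMLE vector and in the arrays labelled MCF10A Twist, which overlap. MDM4 stood at 8.86, 9.01 and 8.88 in the HMLE vector arrays, 9.45, 9.16 and 9.45 in HMLE Snail and 9.62, 9.10 and 9.47 in HMLE Twist. The same gene read 9.39, 9.62 and 9.53 in MCF10A vector, 9.87, 9.64 and 9.72 in MCF10A Snail and 9.54, 9.26 and 9.34 in the arrays labelled MCF10A Twist. The MDM4 arrays with a factor all exceeded HMLE vector, while its replicates spread more widely than those of MDM2.

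Among the apoptosis genes, CYFIP2, a subunit of the actin-regulating WAVE complex, was lowest in HMLE vector among the 6 groups. CYFIP2 stood at 7.32, 7.28 and 7.40 in the HMLE vector arrays, 8.95, 9.02 and 9.09 in HMLE Snail and 10.30, 10.13 and 10.23 in HMLE Twist. In the MCF10A groups CYFIP2 read 10.57, 10.44 and 10.45 in MCF10A vector, 9.44, 9.38 and 9.26 in MCF10A Snail and 10.36, 10.17 and 10.16 in the arrays labelled MCF10A Twist. The 3 HMLE groups did not overlap and ran from vector over Snail to Twist in level, while in MCF10A the vector arrays were the highest. EDA2R encodes a receptor of the tumour necrosis factor family. EDA2R stood at 8.67, 8.92 and 8.52 in the HMLE vector arrays, 11.05, 10.93 and 10.93 in HMLE Snail and 10.29, 10.16 and 10.44 in HMLE Twist. For MCF10A the EDA2R levels were 10.01, 9.87 and 9.98 in MCF10A vector, 10.19, 10.06 and 10.12 in MCF10A Snail and 9.63, 9.47 and 9.51 in the arrays labelled MCF10A Twist. HMLE vector was the lowest group and HMLE Snail the highest, with no overlap. TP53INP1 encodes a stress protein that acts with p53 in cell death and autophagy. TP53INP1 stood at 8.34, 8.57 and 8.54 in the HMLE vector arrays, 10.57, 10.41 and 10.58 in HMLE Snail and 10.04, 9.94 and 10.13 in HMLE Twist. Its MCF10A levels were 9.52, 9.40 and 9.39 in MCF10A vector, 9.92, 9.89 and 9.79 in MCF10A Snail and 10.04, 9.85 and 9.78 in the arrays labelled MCF10A Twist. Every array with a factor lay above the vector arrays of its line. PERP, a membrane protein of desmosomes and also a p63 target in epithelia, behaved in the opposite way. PERP stood at 12.91, 12.83 and 12.96 in the HMLE vector arrays, 10.69, 10.70 and 10.68 in HMLE Snail and 10.44, 10.40 and 10.50 in HMLE Twist. The MCF10A arrays gave PERP 13.27, 13.26 and 13.40 in MCF10A vector, 12.86, 12.85 and 12.84 in MCF10A Snail and 10.35, 10.39 and 10.42 in the arrays labelled MCF10A Twist. The 9 arrays of HMLE Snail, HMLE Twist and labelled MCF10A Twist lay between 10.35 and 10.70, and the other 9 lay at 12.83 or above. PMAIP1, which encodes the BH3-only protein NOXA, was highest in HMLE vector. PMAIP1 stood at 10.17, 10.30 and 10.06 in the HMLE vector arrays, 9.92, 9.88 and 9.77 in HMLE Snail and 9.21, 9.12 and 9.25 in HMLE Twist. PMAIP1 levels were 8.79, 8.47 and 8.60 in MCF10A vector, 8.25, 8.33 and 8.07 in MCF10A Snail and 9.51, 9.29 and 9.40 in the arrays labelled MCF10A Twist. MCF10A Snail was the lowest group and did not overlap its vector arrays.

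SPATA18 encodes a mitochondrial quality-control protein, Mieap. SPATA18 stood at 8.97, 8.94 and 8.93 in the HMLE vector arrays, 9.91, 9.83 and 9.79 in HMLE Snail and 9.02, 8.65 and 8.93 in HMLE Twist. Its MCF10A readings were 10.03, 9.88 and 9.82 in MCF10A vector, 9.90, 9.82 and 9.87 in MCF10A Snail and 7.65, 7.29 and 7.58 in the arrays labelled MCF10A Twist. HMLE Snail, MCF10A vector and MCF10A Snail were high and overlapped, and the arrays labelled MCF10A Twist lay below every other array.

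Among genes of growth arrest and signalling, GDF15 encodes a secreted stress cytokine that the transcription factor ATF4 also drives. GDF15 stood at 9.84, 9.73 and 9.79 in the HMLE vector arrays, 12.19, 12.08 and 12.02 in HMLE Snail and 11.54, 11.78 and 11.79 in HMLE Twist. In MCF10A, GDF15 read 10.92, 10.72 and 10.89 in MCF10A vector, 9.80, 9.82 and 9.77 in MCF10A Snail and 12.51, 12.35 and 12.39 in the arrays labelled MCF10A Twist. HMLE vector and MCF10A Snail overlapped at the low end, and the arrays labelled MCF10A Twist were the highest. ZMAT3 encodes an RNA-binding protein that acts on splicing. ZMAT3 stood at 9.81, 9.89 and 9.77 in the HMLE vector arrays, 11.58, 11.52 and 11.53 in HMLE Snail and 10.84, 10.80 and 10.95 in HMLE Twist. The MCF10A arrays had ZMAT3 at 11.01, 11.00 and 10.95 in MCF10A vector, 11.04, 11.08 and 11.05 in MCF10A Snail and 10.25, 10.11 and 10.17 in the arrays labelled MCF10A Twist. HMLE vector lay below all other groups and HMLE Snail above them. RPS27L encodes a ribosomal protein with a near-identical relative, RPS27, so its probes may not separate the pair. RPS27L stood at 7.60, 7.66 and 7.68 in the HMLE vector arrays, 9.16, 9.06 and 9.15 in HMLE Snail and 8.88, 8.91 and 8.91 in HMLE Twist. RPS27L levels were 8.33, 8.26 and 8.35 in MCF10A vector, 8.79, 8.73 and 8.87 in MCF10A Snail and 8.44, 8.07 and 8.32 in the arrays labelled MCF10A Twist. The HMLE arrays with a factor lay above all vector arrays. GADD45A, a growth-arrest and DNA-damage protein, was high in HMLE. GADD45A stood at 10.74, 10.88 and 10.70 in the HMLE vector arrays, 11.53, 11.41 and 11.45 in HMLE Snail and 10.85, 10.81 and 10.78 in HMLE Twist. GADD45A read 9.45, 9.35 and 9.25 in MCF10A vector, 9.60, 9.51 and 9.53 in MCF10A Snail and 10.42, 10.26 and 10.29 in the arrays labelled MCF10A Twist. HMLE Snail was the highest group and MCF10A vector the lowest. PHLDA3, which restrains the kinase AKT, was higher in the vector arrays of MCF10A than in those of HMLE. PHLDA3 stood at 9.90, 9.86 and 9.89 in the HMLE vector arrays, 9.82, 9.77 and 9.74 in HMLE Snail and 9.64, 9.77 and 9.87 in HMLE Twist. In MCF10A its levels were 10.91, 10.77 and 10.88 in MCF10A vector, 10.53, 10.54 and 10.29 in MCF10A Snail and 9.13, 9.23 and 9.17 in the arrays labelled MCF10A Twist. HMLE Twist overlapped HMLE vector and Snail, and the 3 MCF10A groups were apart from each other.

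**Figure D2:**
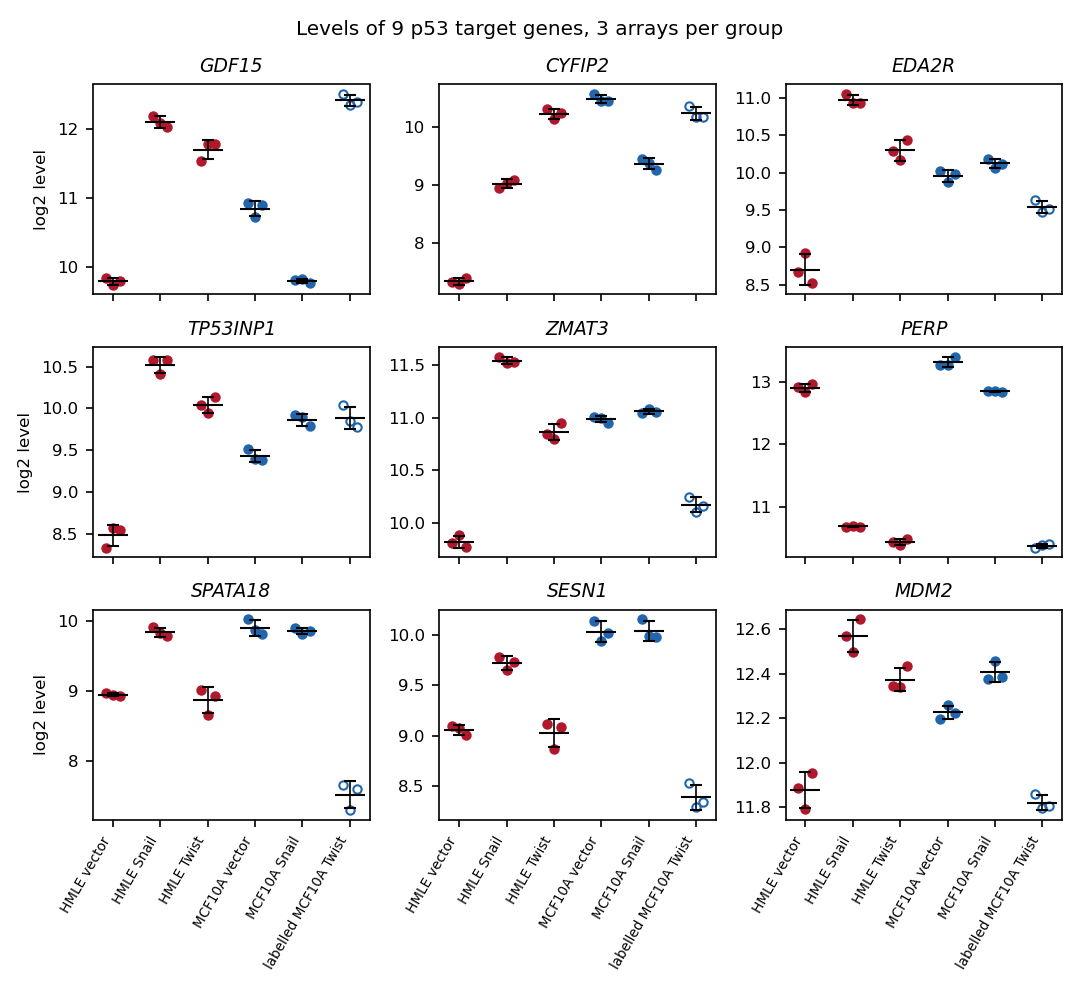
Each panel plots the log2 level of 1 gene in the 3 arrays of each of 6 groups (red, HMLE; blue, MCF10A; open, arrays labelled MCF10A Twist), with the mean as a line and the SD as bars. The vertical axes differ between panels and do not start at 0. GDF15 and CYFIP2 are higher with Snail in HMLE and lower with Snail in MCF10A.

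The DNA repair gene XPC encodes the protein that recognises lesions for nucleotide excision repair. XPC stood at 8.08, 8.35 and 8.16 in the HMLE vector arrays, 9.46, 9.43 and 9.46 in HMLE Snail and 9.42, 9.07 and 9.21 in HMLE Twist. XPC read 8.48, 8.47 and 8.37 in MCF10A vector, 8.62, 8.53 and 8.59 in MCF10A Snail and 8.90, 8.76 and 8.68 in the arrays labelled MCF10A Twist in the other line. HMLE Snail and HMLE Twist lay above all other arrays. Of the metabolic and redox genes, SESN1 encodes a sestrin that restrains growth signalling through mTORC1. SESN1 stood at 9.09, 9.07 and 9.01 in the HMLE vector arrays, 9.78, 9.65 and 9.74 in HMLE Snail and 9.12, 8.86 and 9.09 in HMLE Twist. For SESN1 the MCF10A values were 10.14, 9.94 and 10.03 in MCF10A vector, 10.16, 9.99 and 9.98 in MCF10A Snail and 8.53, 8.29 and 8.34 in the arrays labelled MCF10A Twist. HMLE Twist overlapped HMLE vector, and the arrays labelled MCF10A Twist were the lowest. TP53I3 encodes a quinone oxidoreductase. TP53I3 stood at 11.05, 10.93 and 10.96 in the HMLE vector arrays, 9.93, 9.98 and 9.94 in HMLE Snail and 9.74, 9.73 and 9.60 in HMLE Twist. The MCF10A levels of TP53I3 were 10.17, 10.08 and 10.10 in MCF10A vector, 10.52, 10.24 and 10.34 in MCF10A Snail and 9.62, 9.35 and 9.39 in the arrays labelled MCF10A Twist. HMLE vector was the highest group and overlapped no other. TIGAR encodes a phosphatase that diverts sugar from glycolysis. TIGAR stood at 8.96, 9.23 and 8.82 in the HMLE vector arrays, 8.87, 8.74 and 8.81 in HMLE Snail and 8.88, 8.68 and 8.83 in HMLE Twist. TIGAR read 9.30, 9.03 and 8.94 in MCF10A vector, 9.32, 8.94 and 9.06 in MCF10A Snail and 8.13, 7.88 and 7.95 in the arrays labelled MCF10A Twist. The HMLE groups overlapped, and the arrays labelled MCF10A Twist were low.

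Without an introduced factor, most of the differing p53 targets among the 32 were lower in HMLE, the line with T antigens, than in MCF10A. Differences here and below are log2 differences of group means with their SE, from limma over 18 arrays with p-values adjusted over 18417 genes. A gene counts as changed at an adjusted p under 0.05. Of 32 members, 18 were lower and 7 higher in HMLE vector than in MCF10A vector, where 44% of all genes passed in either direction, 20.6% as lower and 23.4% as higher. At 2-fold or more, 4 members were lower and 2 higher, against 6.35% of all genes, 3.03% as lower and 3.32% as higher. The median difference was -0.36 over the members and 0.00 over all genes, and the groups did not overlap for 27 of 32 members (84.4%) against 53.6% of all genes. CYFIP2 was 8.89-fold lower (-3.15 ± 0.07, adjusted p = 2.3e-15). EDA2R (-1.25 ± 0.09), ZMAT3 (-1.16 ± 0.05) and GDF15 (-1.06 ± 0.07) were the other 2-fold falls toward HMLE. The feedback genes CCNG1, or cyclin G1 (-0.73 ± 0.05), MDM4 (-0.60 ± 0.12) and MDM2 (-0.35 ± 0.05) were lower too. The other 11 lower members ranged from -0.98 for SESN1 to -0.24 for XPC and included PHLDA3, SPATA18, TP53INP1, RRM2B, RPS27L, TRIAP1, PERP, PLK2 and FAS. PMAIP1 (1.56 ± 0.09, adjusted p = 3.12e-10) and GADD45A (1.42 ± 0.06, adjusted p = 1.41e-11) were more than 2-fold higher in HMLE. TP53I3 (0.87 ± 0.08), APAF1 (0.38 ± 0.10), PLK3 (0.26 ± 0.08), BAX (0.18 ± 0.05) and DDB2 (0.14 ± 0.05) were higher by less. BAX lost its call without HMLE vector replicate 3 (0.14, adjusted p = 0.0589) or MCF10A vector replicate 2 (0.15, adjusted p = 0.0585). XPC lost it without HMLE vector replicate 1 or 3 or MCF10A vector replicate 1 or 2 (-0.23 to -0.19, adjusted p 0.0758 to 0.13). DDB2 lost it without any 1 of 13 arrays (0.13 to 0.15, adjusted p 0.0517 to 0.121), that is all except HMLE Twist replicates 1 and 2, MCF10A Snail replicates 1 and 3 and labelled MCF10A Twist replicate 3.

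**Figure D3:**
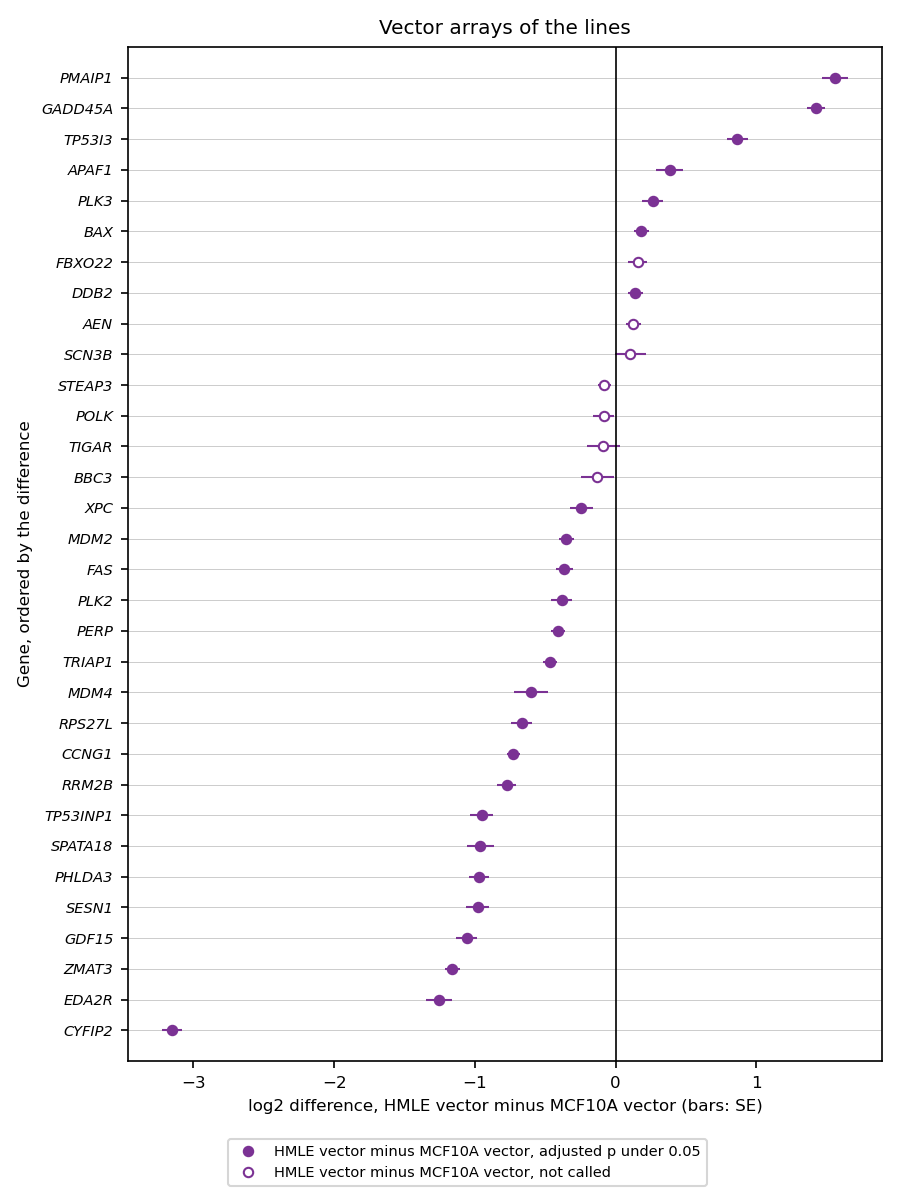
The horizontal axis is the log2 difference of HMLE vector minus MCF10A vector for the 32 measured p53 targets (points, with SE bars, 3 arrays per group), ordered by the difference. Filled points passed an adjusted p of 0.05, and 18 of them lie left of 0 and 7 right of it.

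In HMLE, most p53 targets rose with either factor, among them the secreted cytokine GDF15, the receptor EDA2R, TP53INP1 and CYFIP2, while the desmosome gene PERP and the oxidoreductase TP53I3 fell. With Snail 22 of the 32 members rose and 6 fell, where 47.7% of all genes passed, 22.9% upward and 24.8% downward. With Twist 19 rose and 4 fell, where 43.7% of all genes passed, 23% upward and 20.7% downward. At 2-fold or more 7 members rose and 2 fell with each factor, against 8.88% of all genes for Snail (4.46% upward and 4.41% downward) and 7.89% for Twist (3.61% and 4.28%). The median difference over the members was 0.40 for Snail and 0.27 for Twist, and over all genes it was -0.01 and 0.02. The groups did not overlap for 29 members (90.6%; 57.4% of all genes) with Snail and for 23 (71.9%; 47.1% of all genes) with Twist. Snail and Twist were measured against the same 3 vector arrays, so their values are given side by side and their likeness is not counted.

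Of the 4 feedback genes 3 rose with each factor in HMLE. MDM2 rose by 0.69 ± 0.05 with Snail (adjusted p = 1.11e-08) and by 0.50 ± 0.05 with Twist (adjusted p = 8.42e-07). MDM4 rose by 0.44 ± 0.12 with Snail and 0.48 ± 0.12 with Twist, and CCNG1 by 0.75 ± 0.05 and 0.44 ± 0.05. FBXO22, an F-box protein that acts in the degradation of p53, fell by 0.37 ± 0.07 with Snail and differed by -0.07 ± 0.07 with Twist (adjusted p = 0.488).

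Of the 11 apoptosis genes, 6 rose and 3 fell with Snail, and 7 rose and 2 fell with Twist. EDA2R rose 4.82-fold with Snail (2.27 ± 0.09, adjusted p = 1.56e-12) and 3.02-fold with Twist (1.60 ± 0.09, adjusted p = 1.88e-10). TP53INP1 rose by 2.04 ± 0.08 with Snail and 1.55 ± 0.08 with Twist. CYFIP2 rose 3.22-fold with Snail (1.69 ± 0.07) and 7.39-fold with Twist (2.89 ± 0.07). Among these 11 genes, the 3 had the largest rises under both factors. The mitochondrial pore protein BAX rose by 0.53 ± 0.05 and 0.43 ± 0.05, APAF1 of the apoptosome by 0.36 ± 0.10 and 0.51 ± 0.10, and the death receptor FAS by 0.24 ± 0.06 and 0.31 ± 0.06, for Snail and Twist in that order. PERP fell 4.63-fold with Snail (-2.21 ± 0.05, adjusted p = 1.2e-15) and 5.49-fold with Twist (-2.46 ± 0.05, adjusted p = 3.1e-16). PERP is a desmosome gene, and all 6 epithelial markers fell in the same arrays, EPCAM by 5.72 with Snail and 5.94 with Twist; the part of these markers in its fall was not tested. PMAIP1 fell by 0.32 ± 0.09 with Snail and 0.98 ± 0.09 with Twist. The nuclease gene AEN, whose promoter holds a p53 decamer, fell by 0.17 ± 0.05 with Snail and rose by 0.20 ± 0.05 with Twist. BBC3 (0.10 ± 0.12 and -0.00 ± 0.12) and the sodium channel subunit SCN3B (-0.25 ± 0.11 and -0.04 ± 0.11) did not pass under either factor.

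Of the 4 DNA repair genes, 4 rose with each factor in HMLE. XPC rose by 1.25 ± 0.08 with Snail and 1.04 ± 0.08 with Twist. RRM2B, a ribonucleotide reductase subunit, rose by 0.86 ± 0.07 and 0.66 ± 0.07, and the translesion polymerase POLK by 0.30 ± 0.07 and 0.50 ± 0.07. DDB2, which binds ultraviolet lesions, rose by 0.76 ± 0.05 with Snail and by 0.14 ± 0.05 with Twist. The DDB2 call for Twist was lost without any 1 of 14 arrays (0.12 to 0.15, adjusted p 0.0523 to 0.16), that is all except HMLE Twist replicate 2, MCF10A Snail replicates 1 and 3 and labelled MCF10A Twist replicate 3.

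Of the 7 genes of growth arrest and signalling, 6 rose with Snail, and with Twist 4 rose and PLK3 fell. GDF15 rose 4.96-fold with Snail (2.31 ± 0.07, adjusted p = 7.58e-14) and 3.77-fold with Twist (1.91 ± 0.07, adjusted p = 1.01e-12). ZMAT3 rose by 1.72 ± 0.05 and 1.04 ± 0.05, and RPS27L by 1.48 ± 0.07 and 1.25 ± 0.07. GADD45A rose by 0.69 ± 0.06 with Snail and differed by 0.04 ± 0.06 with Twist (adjusted p = 0.704). The kinase gene PLK2 rose by 0.33 ± 0.07 with Snail and 0.23 ± 0.07 with Twist. Its Twist call was lost without HMLE vector replicate 1 or 3 or HMLE Twist replicate 3 (0.18 to 0.21, adjusted p 0.059 to 0.0908). PLK3, a related kinase, rose by 0.19 ± 0.08 with Snail and fell by 0.39 ± 0.08 with Twist. Its Snail call was lost without any 1 of HMLE vector replicates 2 and 3, HMLE Snail replicates 1 and 3, MCF10A vector replicate 1 and MCF10A Snail replicate 3 (0.15 to 0.21, adjusted p 0.0506 to 0.177). PHLDA3 passed under neither factor (-0.10 ± 0.07 and -0.12 ± 0.07).

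SPATA18 rose by 0.90 ± 0.10 with Snail and differed by -0.08 ± 0.10 with Twist (adjusted p = 0.58). TRIAP1, an inhibitor of the apoptosome and the member with a p53 core motif, rose by 0.32 ± 0.05 and 0.33 ± 0.05. Of the 4 metabolic and redox genes, 1 rose and 2 fell with Snail and 1 fell with Twist. TP53I3 fell 2.04-fold with Snail (-1.03 ± 0.08, adjusted p = 6.12e-09) and 2.45-fold with Twist (-1.29 ± 0.08, adjusted p = 3.53e-10). SESN1 rose by 0.67 ± 0.08 with Snail and differed by -0.03 ± 0.08 with Twist (adjusted p = 0.793). STEAP3, an iron reductase, fell by 0.20 ± 0.05 with Snail and differed by 0.11 ± 0.05 with Twist (adjusted p = 0.0711). TIGAR passed under neither (-0.20 ± 0.12 and -0.20 ± 0.12).

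Set directly against each other in HMLE, 16 members were higher with Snail and 4 higher with Twist, where 32.1% of all genes passed, 14.3% as higher and 17.9% as lower with Snail. CYFIP2 alone differed 2-fold, being 2.3-fold lower with Snail (-1.20 ± 0.07, adjusted p = 1.04e-09; 2.82% of all genes differed 2-fold, 1.02% as lower and 1.8% as higher with Snail). SPATA18 had the largest difference in favour of Snail (0.98 ± 0.10, adjusted p = 5.35e-07). SESN1 (0.70 ± 0.08), ZMAT3 (0.68 ± 0.05), EDA2R (0.67 ± 0.09), PMAIP1 (0.66 ± 0.09), GADD45A (0.65 ± 0.06), DDB2 (0.62 ± 0.05), PLK3 (0.59 ± 0.08), TP53INP1 (0.48 ± 0.08) and GDF15 (0.40 ± 0.07) were also higher with Snail. AEN (-0.37 ± 0.05), FBXO22 (-0.30 ± 0.07) and STEAP3 (-0.30 ± 0.05) were higher with Twist. The remaining calls in favour of Snail were CCNG1 (0.31 ± 0.05), PERP (0.25 ± 0.05), TP53I3 (0.26 ± 0.08), RPS27L (0.23 ± 0.07), RRM2B (0.20 ± 0.07) and MDM2 (0.20 ± 0.05). RPS27L lost its call without replicate 1 or 3 of either factor (0.21 to 0.23, adjusted p 0.0592 to 0.0927). RRM2B lost it without HMLE Snail replicate 1 or 3 or HMLE Twist replicate 2 (0.17 to 0.20, adjusted p 0.0727 to 0.121). TP53I3 lost it without HMLE Snail replicate 2 or HMLE Twist replicate 3 (0.22 to 0.25, adjusted p 0.0502 to 0.0723), and MDM2 without HMLE Snail replicate 3 (0.16, adjusted p = 0.0616). The groups did not overlap for 23 members (71.9%; 40.7% of all genes).

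With Snail in MCF10A, CYFIP2, GDF15, PERP, PMAIP1, PHLDA3 and STEAP3 fell, and RPS27L and TP53INP1 had the largest rises. Of 32 members, 8 rose and 6 fell, where 22.7% of all genes passed, 10.7% upward and 12% downward. At 2-fold or more 2 members fell, against 1.79% of all genes, 1.07% downward and 0.717% upward, and the median difference was 0.06 over the members and -0.02 over all genes. CYFIP2 fell 2.18-fold (-1.13 ± 0.07, adjusted p = 4.02e-09) and GDF15 fell 2.07-fold (-1.05 ± 0.07, adjusted p = 1.83e-08). PERP fell by 0.46 ± 0.05, PMAIP1 by 0.40 ± 0.09, PHLDA3 by 0.40 ± 0.07 and STEAP3 by 0.24 ± 0.05. Of the 6 epithelial markers 4 fell in the same arrays, EPCAM the most, by 1.65. KRT5 (mean 14.08 in vector and 14.14 with Snail) and KRT14 (13.23 and 13.26) did not pass. The part of these markers in the fall of PERP was not tested. RPS27L rose by 0.48 ± 0.07, TP53INP1 by 0.43 ± 0.08 and BAX by 0.29 ± 0.05. The other 5 rises were small, namely APAF1 (0.31 ± 0.10), TP53I3 (0.25 ± 0.08), GADD45A (0.20 ± 0.06), MDM2 (0.18 ± 0.05) and AEN (0.18 ± 0.05). Each was lost when some single arrays were left out. APAF1 was lost without MCF10A vector replicate 2 or 3 or MCF10A Snail replicate 1 or 3 (0.25 to 0.29, adjusted p 0.0933 to 0.14), and TP53I3 without the same arrays (0.17 to 0.27, adjusted p 0.0528 to 0.142). GADD45A was lost without those 4 or without MCF10A Snail replicate 2 (0.15 to 0.21, adjusted p 0.0554 to 0.176). MDM2 was lost without MCF10A vector replicate 1 or 3 or MCF10A Snail replicate 2 (0.16 to 0.18, adjusted p 0.064 to 0.0909), and AEN without MCF10A vector replicate 2 or MCF10A Snail replicate 1 or 2 (0.15 to 0.16, adjusted p 0.0732 to 0.0895). The count of rises was 4 without MCF10A vector replicate 2 or 3 or MCF10A Snail replicate 1, 5 without MCF10A Snail replicate 2 or 3, and 7 without MCF10A vector replicate 1. Of the 4 DNA repair members 0 passed in limma, also at an unadjusted p under 0.05, with XPC at 0.14 ± 0.08 (adjusted p = 0.284). The groups did not overlap for 20 members (62.5%; 38.3% of all genes).

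The Snail comparisons of the lines share no array, and the difference of the Snail effects was tested in the same fit. The vector arrays of both lines also enter the comparison of the lines without a factor. A low level in HMLE vector thus enters that comparison, the rises with either factor in HMLE and the difference of effects, and these are not separate results. The effect was more positive in HMLE for 20 members and more negative for 4, where 40.2% of all genes passed, 19.9% and 20.2% in these directions, and at 2-fold or more 6 were more positive and 2 more negative against 8.62% of all genes, 4.58% and 4.04% in these directions. GDF15 rose in HMLE and fell in MCF10A, a difference of effects of 3.36 ± 0.10 (adjusted p = 2.54e-13), and so did CYFIP2 (2.81 ± 0.10, adjusted p = 1.16e-12). TP53I3 (-1.28 ± 0.11) and AEN (-0.35 ± 0.07) went the other way, with a fall in HMLE and a rise in MCF10A, and the MCF10A rises of these genes are among those lost when single arrays were left out. EDA2R (2.10 ± 0.13), ZMAT3 (1.65 ± 0.08), TP53INP1 (1.61 ± 0.12) and XPC (1.11 ± 0.12) rose more in HMLE, and PERP fell more there (-1.75 ± 0.07). MDM2, BAX, APAF1, TP53INP1, GADD45A and RPS27L rose with Snail in both lines. These 6 are 27.3% of the 22 rises in HMLE and 75% of the 8 rises in MCF10A, where for all genes the shares were 23.5% and 50.4%. The 6 were 3 (BAX, TP53INP1 and RPS27L) without MCF10A vector replicate 3, 4 without MCF10A vector replicate 2 or any 1 MCF10A Snail replicate, and 5 without MCF10A vector replicate 1. PERP, PMAIP1 and STEAP3 fell in both. For PMAIP1 the difference of effects was 0.08 ± 0.13 (adjusted p = 0.688) and for APAF1 0.06 ± 0.14 (adjusted p = 0.814). Calls on small differences of effect were lost for BAX without HMLE vector replicate 2 or MCF10A vector replicate 1 (0.19 to 0.21, adjusted p 0.0574 to 0.0611). They were lost for PLK2 without HMLE vector replicate 3, HMLE Snail replicate 1 or MCF10A vector replicate 1 (0.26 to 0.29, adjusted p 0.0516 to 0.0623), and for PLK3 without HMLE Snail replicate 1 (0.29, adjusted p = 0.0501). For PHLDA3 the call was lost without HMLE vector replicate 2, HMLE Snail replicate 1, MCF10A vector replicate 1 or 3 or MCF10A Snail replicate 3 (0.21 to 0.29, adjusted p 0.0545 to 0.0801).

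**Figure D4:**
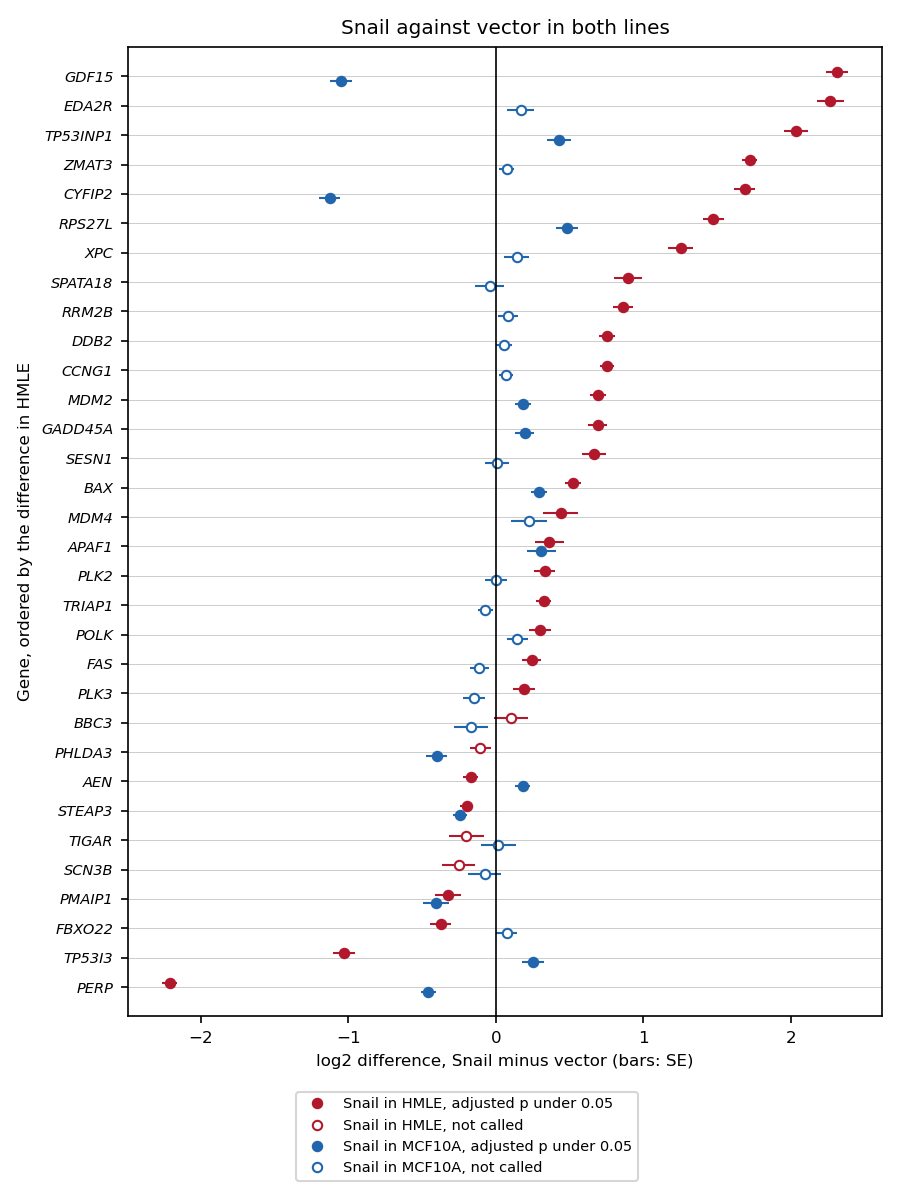
The horizontal axis is the log2 difference of Snail minus vector for the 32 measured p53 targets, with HMLE in red and MCF10A in blue (points, with SE bars, 3 arrays per group). Filled points passed an adjusted p of 0.05. GDF15 and CYFIP2 lie right of 0 in HMLE and left of it in MCF10A, and most HMLE points lie farther from 0.

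The arrays labelled MCF10A Twist had more p53 targets down than up when set against MCF10A vector. Of 32 members, 15 fell and 10 rose, where 50.4% of all genes passed, 23.9% downward and 26.5% upward. At 2-fold or more 5 fell and 1 rose, against 10.5% of all genes (5.33% and 5.19%), and the median difference was -0.12 over the members and 0.03 over all genes. PERP fell 7.59-fold (-2.92 ± 0.05, adjusted p = 3.28e-17) and SPATA18 5.28-fold (-2.40 ± 0.10, adjusted p = 1.21e-12). EPCAM fell by 5.51 in these arrays, and its part in the fall of PERP was not tested. PHLDA3 (-1.68 ± 0.07), SESN1 (-1.65 ± 0.08) and TIGAR (-1.11 ± 0.12) also fell 2-fold. All 4 measured metabolic and redox genes fell, TP53I3 by 0.66 ± 0.08 and STEAP3 by 0.55 ± 0.05. PLK3 (-0.82 ± 0.08), ZMAT3 (-0.81 ± 0.05), RRM2B (-0.67 ± 0.07), EDA2R (-0.42 ± 0.09), MDM2 (-0.41 ± 0.05), TRIAP1 (-0.33 ± 0.05), CYFIP2 (-0.25 ± 0.07) and CCNG1 (-0.18 ± 0.05) fell by less. GDF15 rose 2.97-fold (1.57 ± 0.07, adjusted p = 1.04e-11). GADD45A (0.97 ± 0.06), PMAIP1 (0.78 ± 0.09), POLK (0.69 ± 0.07), APAF1 (0.48 ± 0.10), TP53INP1 (0.45 ± 0.08), PLK2 (0.37 ± 0.07), XPC (0.34 ± 0.08), BAX (0.27 ± 0.05) and FAS (0.18 ± 0.06) rose as well. FAS lost its call without MCF10A vector replicate 2 or labelled MCF10A Twist replicate 1 (0.13 to 0.17, adjusted p 0.0696 to 0.113).

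Against HMLE vector the same 3 arrays had 13 members higher and 11 lower, where 49.2% of all genes passed, 25.2% upward and 24% downward. At 2-fold or more, 3 were higher and 5 lower, against 9% of all genes (4.03% and 4.97%). CYFIP2 (2.90 ± 0.07), GDF15 (2.63 ± 0.07) and TP53INP1 (1.41 ± 0.08) were more than 2-fold higher. PERP (-2.52 ± 0.05), TP53I3 (-1.53 ± 0.08), SPATA18 (-1.44 ± 0.10), PLK3 (-1.09 ± 0.08) and TIGAR (-1.02 ± 0.12) were more than 2-fold lower. The direction for a gene can depend on which vector arrays serve as the control. CYFIP2 was 1.19-fold lower than in MCF10A vector and 7.45-fold higher than in HMLE vector. EDA2R (-0.42 ± 0.09 against MCF10A vector, 0.83 ± 0.09 against HMLE vector) and ZMAT3 (-0.81 ± 0.05 and 0.35 ± 0.05) turned in the same sense, and GADD45A (0.97 ± 0.06 and -0.45 ± 0.06) and PMAIP1 (0.78 ± 0.09 and -0.78 ± 0.09) in the opposite one. TRIAP1 turned as well (-0.33 ± 0.05 and 0.14 ± 0.05), and its call against HMLE vector was lost without HMLE vector replicate 1 or 3 or labelled MCF10A Twist replicate 1 (0.10 to 0.14, adjusted p 0.0612 to 0.154). CCNG1 also turned and passed against both vectors, with a mean of 13.14 in these arrays, 13.32 in MCF10A vector and 12.59 in HMLE vector. MDM2 was -0.06 ± 0.05 against HMLE vector (adjusted p = 0.446). The comparisons share the 3 labelled Twist arrays.

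**Figure D5:**
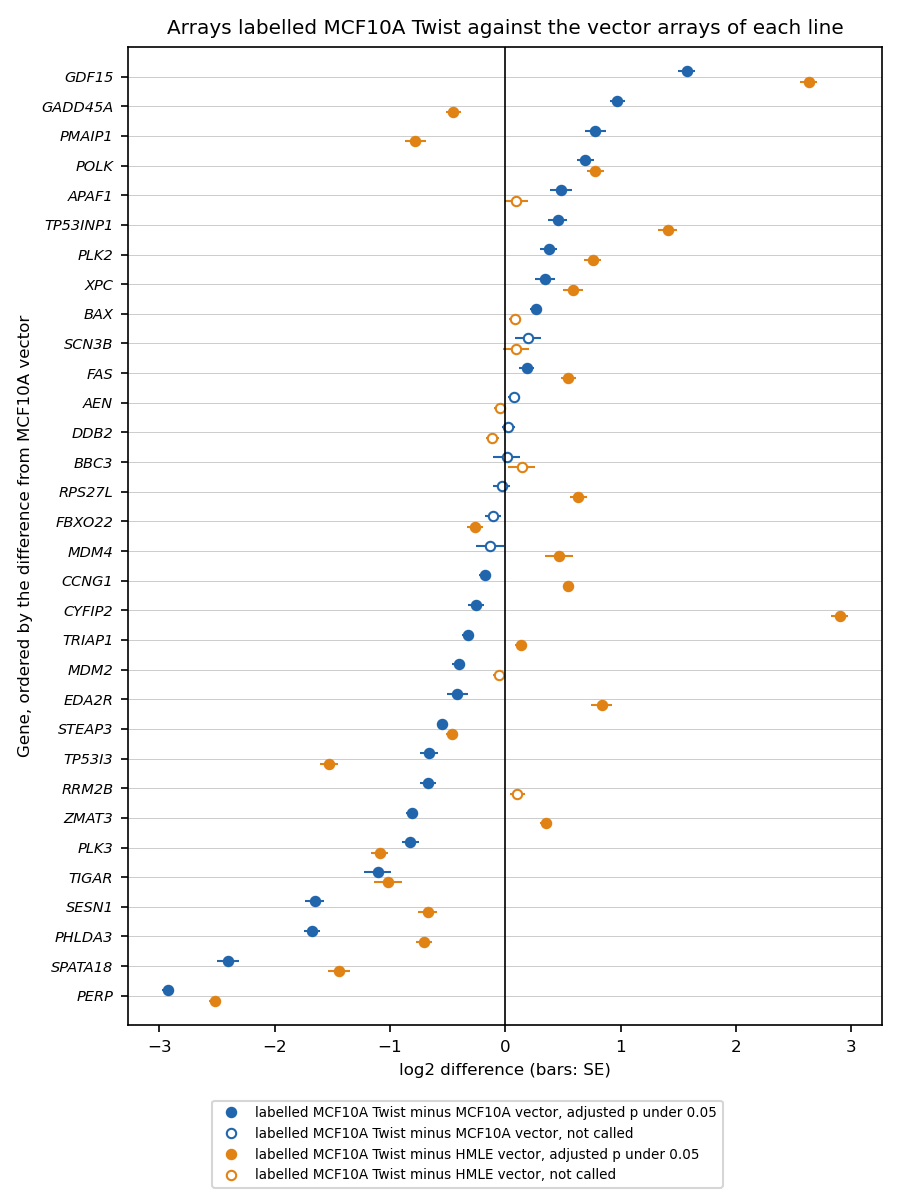
The horizontal axis is the log2 difference of the arrays labelled MCF10A Twist minus MCF10A vector (blue) and minus HMLE vector (orange) for the 32 measured p53 targets (points, with SE bars, 3 arrays per group). Filled points passed an adjusted p of 0.05. PERP, SPATA18 and TIGAR lie left of -1 and GDF15 right of 1 against both vectors, and CYFIP2 lies at -0.25 and 2.90.

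Genes that act on p53, and p53 targets outside the 34, were read in the same fit. In the 4 comparisons with the vector of the named line, in the order HMLE Snail, HMLE Twist, MCF10A Snail and labelled MCF10A Twist, 5, 7, 7 and 10 of 18 p53 regulators rose and 2, 2, 0 and 4 fell, and the limma count of 0 in MCF10A Snail was also 0 at an unadjusted p under 0.05. Of all genes 22.9%, 23%, 10.7% and 26.5% rose and 24.8%, 20.7%, 12% and 23.9% fell in these comparisons. The 18 include genes that act for p53 and genes that act against it, so the counts do not give a direction of p53 activity. ATM, the kinase that signals DNA breaks to p53, rose by 1.03, 0.78, 0.63 and 0.28 in that order, and HIPK2, another p53 kinase, by 0.74, 0.40, 0.41 and 0.36. PPM1D, which acts against p53, had group means of 9.57 in HMLE vector, 9.97 in HMLE Snail and 10.07 in HMLE Twist. Its means were 9.86 in MCF10A vector, 9.87 in MCF10A Snail and 10.38 in the arrays labelled MCF10A Twist. USP7, which removes ubiquitin from p53 and MDM2, fell by 0.53 and 0.33 with the factors in HMLE and in the arrays labelled MCF10A Twist by 0.30, and differed by -0.08 in MCF10A Snail (adjusted p = 0.366). TP73, which encodes a relative of p53, fell by 0.67 in MCF10A Snail and 0.53 in the arrays labelled MCF10A Twist, and did not pass in HMLE (-0.03 and -0.05). CDKN2A, whose product ARF restrains MDM2, rose by 2.41 ± 0.08 in the arrays labelled MCF10A Twist and lies in the region that MCF10A cells are known to lack.

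Of 20 other p53 targets, 10, 11, 4 and 8 rose and 6, 7, 6 and 6 fell in the same order, which is 50%, 55%, 20% and 40% up and 30%, 35%, 30% and 30% down, beside the shares of all genes just given. CDKN1A, the cyclin-dependent kinase inhibitor p21 and the best known target of p53, rose by 0.60, 0.92, 0.18 and 0.32. SFN, an epithelial adaptor protein that arrests the cycle, fell by 1.75, 1.96, 0.45 and 3.14. The death receptor TNFRSF10A fell by 1.45 and 1.30 in HMLE and in the arrays labelled MCF10A Twist by 1.30, and stood at -0.14 in MCF10A Snail (adjusted p = 0.307). KITLG, the ligand of the receptor KIT, rose by 1.91, 0.79 and 1.19 and stood at 0.13 in MCF10A Snail (adjusted p = 0.539). IGFBP3 rose by 1.89 in MCF10A Snail, the only 2-fold change of the 20 there. Its means were 8.91 in HMLE vector and 10.11 in HMLE Snail. Between the vector arrays, 7 of the 20 were higher in HMLE (35%; 23.4% of all genes) and 8 lower (40%; 20.6% of all genes). CDKN1A had a mean of 11.27 in HMLE vector and 10.87 in MCF10A vector.

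Cell cycle genes that p53 lowers through p21 and the DREAM repressor complex were read as a further list. Of 20, 18 fell with Snail in HMLE (90%; 24.8% of all genes), among them MYBL2 (-1.41) and RRM2 (-1.03). With Twist 7 fell (35%; 20.7% of all genes) and 1 rose (5%; 23% of all genes). In MCF10A Snail 9 rose (45%; 10.7% of all genes), RRM2 by 0.54. In the arrays labelled MCF10A Twist 20 of 20 rose against MCF10A vector (26.5% of all genes), E2F1 by 1.22. Against HMLE vector 10 of the 20 were higher (50%; 25.2% of all genes) and 4 lower (20%; 24% of all genes) in these last arrays, whose line is in doubt. The Snail effect was more negative in HMLE than in MCF10A for 19 of 20, where 20.2% of all genes passed in this direction. In the vector arrays 20 of 20 were higher in HMLE than in MCF10A, FOXM1 by 1.11, where 23.4% of all genes were higher. Of 12 genes of the integrated stress response, the pathway of ATF4 that also drives GDF15, 2, 1, 0 and 4 rose in the 4 comparisons with vector. In the same order 7, 7, 8 and 6 fell, and the limma count of 0 was also 0 at an unadjusted p under 0.05. That is 16.7%, 8.33%, 0% and 33.3% up and 58.3%, 58.3%, 66.7% and 50% down. Of all genes 22.9%, 23%, 10.7% and 26.5% rose and 24.8%, 20.7%, 12% and 23.9% fell. CHAC1 fell by 1.35 with Snail and 1.03 with Twist in HMLE, ASNS fell by 0.87 in MCF10A Snail, and DDIT3 rose by 1.35 in the arrays labelled MCF10A Twist. The part of these genes in the changes of the p53 targets was not tested.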

How the data were processed

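Biotin-labelled total RNA from each of 18 samples was run on an Affymetrix human gene array, per the labels. What the authors deposited is 1 table of log2 values for 33297 probe sets, made with RMA per the submitters' processing notes. The version of RMA, and whether the arrays were normalised as 1 batch, are not given here. RMA compresses differences of dim probe sets, and 3 arrays a group limit the precision.

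Genes were named from probe sets with 1 symbol (19460; 1754 had several and 12083 were not listed), with 19429 symbols updated by gene ID to the GRCh38.p14 table. The probe set with the highest mean stood for each of 769 genes with several, which left 18417 genes, and each measured p53 target had 1 probe set. Groups came from the titles. limma 3.58.1 in R 4.3.3 fitted 6 group means over 18 arrays (12 residual degrees of freedom), and p-values were adjusted over genes by Benjamini-Hochberg. Arrays left out, other normalisations, thresholds and fits were alternatives, and the fit without the arrays labelled MCF10A Twist was chosen after seeing the data. The fit was tested on simulated data of 18417 genes for the HMLE Snail comparison, where 26% of genes shifted by 0.25 (log2) were called, 66% by 0.5, 98% by 1 and 100% by 1.5. The simulation shifted 50 genes by each size and left 18217 unchanged. In the data 47.7% of all genes passed in this comparison, and the adjustment is less strict when more genes change. These shares are therefore not detection rates for the data.

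The p53 targets and the other lists were chosen with earlier results of these data known. Values in every array are given for members that changed 2-fold in 1 of the 4 comparisons with the vector of the named line or between the vectors, and for MDM2 and MDM4. Figures were drawn with matplotlib 3.10.9.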

Additional observations from a re-analysis of the deposited data

Results flagged for a closer look

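The effect of Snail differed between HMLE and MCF10A, by the test of the difference of log2 effects in the limma fit at an adjusted p under 0.05, for 24 of 32 p53 targets, and 40.2% of all genes passed the same test. The difference, HMLE minus MCF10A, was 3.36 for GDF15, 2.81 for CYFIP2, 2.10 for EDA2R, 1.65 for ZMAT3, 1.61 for TP53INP1 and 1.11 for XPC. It was below 0 for PERP (-1.75), TP53I3 (-1.28), FBXO22 (-0.45) and AEN (-0.35). The other 14 differences were smaller and above 0, namely RPS27L (0.99), SPATA18 (0.94), RRM2B (0.78), DDB2 (0.70), CCNG1 (0.68), SESN1 (0.66), MDM2 (0.51), GADD45A (0.50), TRIAP1 (0.40), FAS (0.35), PLK3 (0.34), PLK2 (0.33), PHLDA3 (0.30) and BAX (0.23). The HMLE arrays carry T antigens and the MCF10A arrays do not, which cannot be told apart from the line. SNAI1 rose by 5.14 in HMLE, from a mean of 7.39 in vector to 12.53 with Snail. In MCF10A it rose by 4.17, from 8.32 to 12.49. The levels with Snail were thus close, and the gap between the rises lay in the vector arrays. The part of this gap in the differences was not tested.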

How the results depend on the processing

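There were 7360 values of single p53 targets under 29 alternatives, which were each of 18 arrays left out and 11 other settings. Of these, 7189 kept their side of the threshold, 126 lost a call and 45 gained one. Of the calls, 0 reversed. The direction of values without a call was not compared, and for some it changed. The 11 were quantile normalisation, centred medians, averaged probe sets, a filter on genes below 6, array weights, a variance trend, robust variance, only the groups compared, a replicate block, an adjusted p under 0.01 and the fit without the arrays labelled MCF10A Twist. Averaging probe sets could not change a difference, since each measured p53 target had 1 probe set. Leaving out an array outside the groups compared, or a stricter threshold, also left the difference itself unchanged. The number of values kept is therefore partly set in advance. For 2 counts of members an alternative moved the count by over 1.5 times, other than single arrays left out. Members higher with Twist than with Snail in HMLE numbered 4, and 8 with array weights, whose estimation stopped before it converged. Rises with Snail in MCF10A numbered 8, and 4 with only the groups compared, 3 at an adjusted p under 0.01 and 4 to 8 with single arrays left out. Without the arrays labelled MCF10A Twist the other comparisons gave 22 rises and 6 falls for HMLE Snail, 18 and 4 for HMLE Twist and 8 and 6 for MCF10A Snail. Replicate numbers are shared by the groups, and the correlation of same-numbered deviations from the group means ran from -0.52 to 0.33 between groups that were compared, and no compared groups had all 3 over 0.1, so the numbers were not taken as pairs. Between HMLE Twist and labelled MCF10A Twist, which were not compared, it was 0.64, 0.54 and 0.13. Of the 6 arrays of HMLE Snail and MCF10A Snail, 6 correlated best with their own number, of HMLE Snail and Twist 5 and of the other compared groups 0 to 3. With the number as a replicate block, every count moved by less than 1.5 times (8 rises with Snail in MCF10A), and 1 call was gained, POLK lower with Snail than Twist in HMLE (-0.20, adjusted p = 0.0388). Low signals limit SCN3B, with group means of 6.70 to 7.04, since RMA compresses dim differences. Small differences were found less often in simulated data.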
